A study of Drosophila melanogaster with 6 samples.

Results

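The nuclear-encoded subunits of the mitochondrial respiratory chain and of ATP synthase were examined as a set of 71 genes among the 17753 gene identifiers in the deposited count table. They were chosen by name alone, as genes whose FlyBase symbol starts with ND- (complex I), is SdhA to SdhD (complex II), starts with UQCR- or is RFeSP or Cyt-c1 (complex III), is Cyt-c-p (cytochrome c), starts with COX4 to COX8 or is cype or levy (complex IV), or starts with ATPsyn (complex V). No measured value entered the naming rule, though the choice was made with earlier results of these data known. Symbols ending in L were left out. These were 18 genes, mostly copies of subunit genes, and none had more than 11 counts in a library. The rule gave 35 genes for complex I, 4 for complex II, 8 for complex III, 1 for cytochrome c, 12 for complex IV and 11 for complex V. It does not take in blw and sun, which code for the alpha and epsilon subunits of ATP synthase, nor ND-MNLL, a complex I subunit whose name ends in L.

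The 6 libraries came from male Drosophila melanogaster that carry RNA interference against Ugt35b, a UDP-glycosyltransferase gene, under Repo-GS, a GeneSwitch driver of glial cells that acts when the drug RU486 is given. Both groups had this genotype, and day 10 is the time given for them. The EtOH group received the solvent ethanol and the RU486 group received the drug, with 3 libraries per group and 10 flies pooled per library. No library with RU486 and without the interference construct was analysed here, so the drug and the knockdown cannot be told apart. The labels name the tissue as head and the extraction protocol names brains. Nothing in the labels ties a library to its own mating or vial, and the replicate spread behind each p-value may therefore be technical in part.

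Complex I (NADH dehydrogenase) and complex II (succinate dehydrogenase) pass electrons from NADH and succinate to ubiquinone. Complex III passes them on to cytochrome c, and complex IV hands them to oxygen. Complexes I, III and IV pump protons across the inner mitochondrial membrane, and complex V, the ATP synthase, uses the gradient to make ATP. Neurons and photoreceptors rely heavily on this chain, whereas glia are known for a more glycolytic metabolism. Complex II is built wholly from nuclear genes, and each of the others also holds subunits coded in the mitochondrial genome.

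Library totals ranged from 10156909 to 12636787 counts. The target, listed as Ugt35B1 (FBgn0026314), was lower in RU486 (log2 fold change -0.54, edgeR adjusted p = 0.00865; 0.0566 without EtOH replicate 3). Over all genes, edgeR's quasi-likelihood test called 683 of 8945 tested genes at a Benjamini-Hochberg adjusted p under 0.05, or 7.64%, with 3.28% lower and 4.36% higher in RU486. EtOH replicate 2 stood apart from the other EtOH libraries, and without it 1441 genes, or 15.9%, were called. RU486 replicate 2 stood apart from its group too, and without it 440 genes were called. Disagreement between 2 libraries, as chi-square per degree of freedom, was 32.8 and 24.8 for its pairs and 8.48 for the other RU486 pair. In EtOH it was 26.0 and 19.0 for the pairs of replicate 2 and 8.09 for the other pair. The summed level of 12 neuron markers, in counts per 1000000 (CPM) without scaling factors, was 7659 to 10447 in EtOH, with EtOH replicate 2 the highest, and 8347 to 8792 in RU486, with Syx1A and VAChT listed at 0. Of the 9 tested neuron markers 5 had a log2 fold change below 0 and 0 were called (median -0.13). The 13 photoreceptor markers summed to 69760 to 80757 in EtOH, with EtOH replicate 2 the lowest, and to 64757 to 69892 in RU486, with ninaA and inaF-B at 0. Of the 11 tested 10 had a log2 fold change below 0 and 0 were called (median -0.15). With each library corrected for its trend on gene length, all 11 were below 0 (median -0.17). The 17 muscle markers summed to 5484 to 6560 in EtOH, with EtOH replicate 2 the highest, and to 5893 to 6094 in RU486. Act79B was called lower (log2 fold change -0.46), 0 were called higher, and TpnC4 was at 0. The 12 glial markers summed to 4163 to 4360 in EtOH and 4081 to 4452 in RU486, with 2 called higher and 3 lower, and with moody, alrm and Tret1-1 at 0. Single glial genes changed more than this sum. Called lower were wrapper (log2 fold change -2.10), Gat (-1.92) and zyd (-0.89), and called higher were Mdr65 (0.95) and bdl (0.73). The 11 fat body markers summed to 7169 to 7970 in EtOH and 7973 to 8394 in RU486, with 1 called higher and 5 lower. Tsf1 was the 1 higher (log2 fold change 0.90), and Obp99b (-4.49) and Lsp1beta (-3.51) fell furthest of the 5. The 14 gut markers summed to 681 to 725 in EtOH and 498 to 9983 in RU486, with 2 higher and 1 lower. The RU486 libraries differed widely for the 2 higher genes, Amy-p (354 ± 402 CPM, mean ± SD) and Amy-d (555 ± 682 CPM). Limma-voom called neither (adjusted p = 0.328 and 0.195). The part of these shifts in the results below was not tested.

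Transcripts for nearly every subunit were slightly less abundant in RU486, and no single subunit passed the test. Of the 71 genes 66 had enough counts to be tested, and 64 of the 66 had a log2 fold change below 0, where 49.4% of all tested genes did. The median member had a log2 fold change of -0.18, against 0.00 for all tested genes, and 64 members had a 95% interval lying wholly within a change of 1 on the log2 scale in either direction. Members are mostly short genes, with a median exonic length of 880 bases against 2193 over all tested genes with a length. All tested genes of 800 or fewer bases had a median log2 fold change of -0.12. With each library corrected for its trend on gene length, the member median was -0.081 and 60 of 66 were below 0. EdgeR called 0 of the 66, with 24 lower and 1 higher at an unadjusted p under 0.05 (10.7% of all tested genes were lower at that level). The DESeq2 Wald test called 2, UQCR-Q and ATPsynbeta (4.01% of all genes were called lower), and limma-voom called 1, UQCR-Q (3.16%). The groups did not overlap for 30 members that were lower in RU486, and 13.5% of all tested genes had that pattern. Fewer cells of a type and less RNA per cell cannot be told apart in these bulk libraries. Without EtOH replicate 2, 33 of the 66 were called, each of them lower (6.47% of the 9085 genes of that fit were called lower). That library was the lowest of the EtOH group for 60 of 66 members, and leaving it out moved the member median to -0.25. With the length correction as well, 3 were called (3.73% of the genes of that fit were called lower). Leaving out any other single library gave 0 (1.4% to 1.96% of all genes were called lower).

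The values in each library followed 1 pattern. The median member stood at 107% of its EtOH mean in EtOH replicate 1, at 90.9% in replicate 2 and at 102% in replicate 3. In RU486 it stood at 88.5%, 88.5% and 89.1%. For the median member all 3 RU486 libraries were thus alike and low. On this CPM scale EtOH replicate 2 lay nearer to them than to the other EtOH libraries. Where levels were first divided by exonic length and then scaled to 1000000 over all genes, EtOH replicate 2 lay nearer to EtOH. Its sum over members was 30586 against 32252 and 32229 in EtOH replicates 1 and 3 and 28230, 27173 and 28712 in RU486. On the CPM scale EtOH replicate 2 was the lowest of the EtOH libraries for 60 of 66 members, against 44.6% of all tested genes.

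Other fits called few members, near or below the share of all genes. UQCR-Q was the 1 member called with DESeq2 size factors (3.45% of all genes lower), library size alone (3.61%), the filter of 1 CPM in 3 libraries (3.65%) and the replicate block (4.18%). With upper-quartile factors 2 were called, UQCR-Q and ND-13B (4.09%), and with no filter 0 (2.2%). At an adjusted p under 0.1 there were 4, all lower (5.62%). Leaving out EtOH replicate 1 (1.81%) or 3 (1.4%), or RU486 replicate 1 (1.96%), 2 (1.83%) or 3 (1.67%), 0 members were called.

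**Figure D1:**
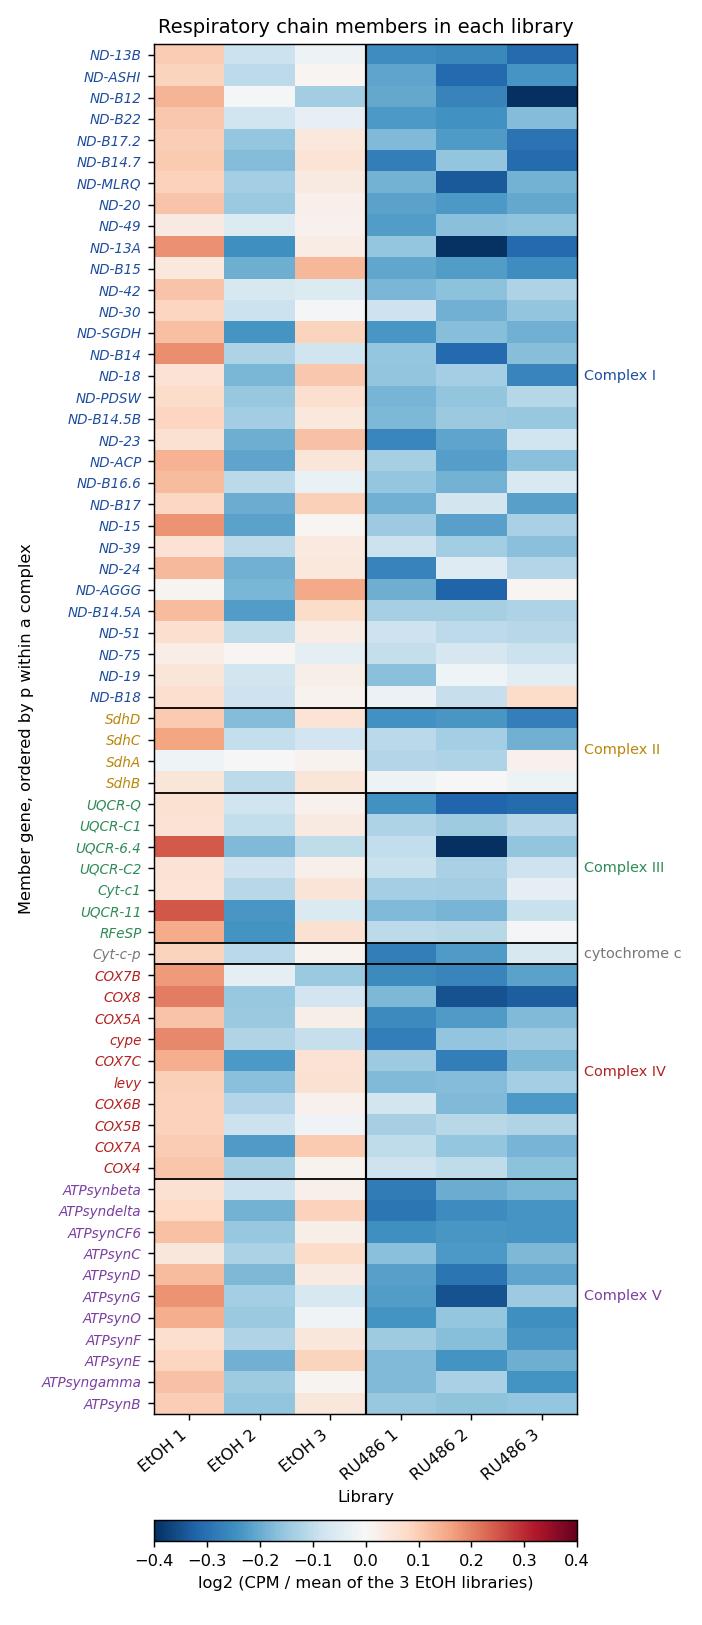
Level of each tested member (rows, grouped by complex) in each of the 6 libraries (columns), as the log2 ratio of its CPM to the mean of the 3 EtOH libraries. The colours run from blue (lower) to red (higher), ND-MWFE and COX7AL2 are left out for their few counts, and EtOH replicate 2 is pale blue for most members, between the other EtOH libraries and the RU486 libraries.

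Complex V stood lowest of the complexes relative to EtOH, and its members differed least among themselves. Its summed level was 5754, 5016 and 5631 CPM in EtOH replicates 1 to 3 and 4715, 4722 and 4780 CPM in RU486. Each RU486 library was below each EtOH library, and the RU486 mean of 4739 ± 35.9 CPM (SD, n = 3) was 0.867 times the EtOH mean of 5467 ± 395 CPM. All 11 members had a log2 fold change below 0, from -0.26 to -0.16 with a median of -0.21. The standard deviation among them, 0.03, was smaller than the median standard error of a single member, 0.09. EdgeR called 0 of 11, with 8 lower at an unadjusted p under 0.05 (10.7% of all tested genes). For 8 the groups did not overlap (13.5% of all tested genes, lower in RU486). Without EtOH replicate 2, 10 of 11 were called, all lower (6.47% of all genes), with ATPsynG the member that was not.

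ATPsynbeta (FBgn0010217, chromosome 4, 1031484 to 1034917), which codes for the catalytic beta subunit, was at 1798, 1627 and 1749 CPM in EtOH and at 1422, 1504 and 1519 CPM in RU486. Every RU486 library lay below every EtOH library, and the log2 fold change was -0.22 (SE 0.07, 95% interval -0.37 to -0.07, edgeR adjusted p = 0.0803). Adjusted p-values in the alternative fits ran from 0.0128 to 0.258, and it was called with the length correction (0.0232). ATPsynC (chromosome 3R, 31216145 to 31219630), the proton-carrying ring subunit and the most abundant member, was at 1870, 1659 and 1909 CPM in EtOH and at 1615, 1545 and 1599 CPM in RU486. Its lowest EtOH library exceeded its highest RU486 library by less than the spread of the EtOH libraries (log2 fold change -0.19, SE 0.07, edgeR adjusted p = 0.144).

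The stalk subunits of complex V followed the same order. ATPsyndelta, of the central stalk, was at 177, 147 and 179 CPM in EtOH and at 137, 141 and 142 CPM in RU486 (log2 fold change -0.26, SE 0.09, edgeR adjusted p = 0.114), and 35.6% of its annotated exonic bases are shared with CG2962 on the other strand. ATPsynCF6, of the peripheral stalk, had a log2 fold change of -0.24 (SE 0.08, edgeR adjusted p = 0.128). ATPsynF, a membrane subunit, had -0.18 (SE 0.08, edgeR adjusted p = 0.222). The 2 subunits outside the naming rule, chosen after their values were seen, lay on either side of this range. The catalytic partner blw had a log2 fold change of -0.12 (SE 0.06, edgeR adjusted p = 0.260), with 1332, 1295 and 1298 CPM in the EtOH libraries. The epsilon subunit gene sun fell from 130 ± 13.5 to 93.1 ± 5.46 CPM (log2 fold change -0.48, SE 0.09, edgeR adjusted p = 0.0103), a call lost without RU486 replicate 3 (0.0574).

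**Figure D2:**
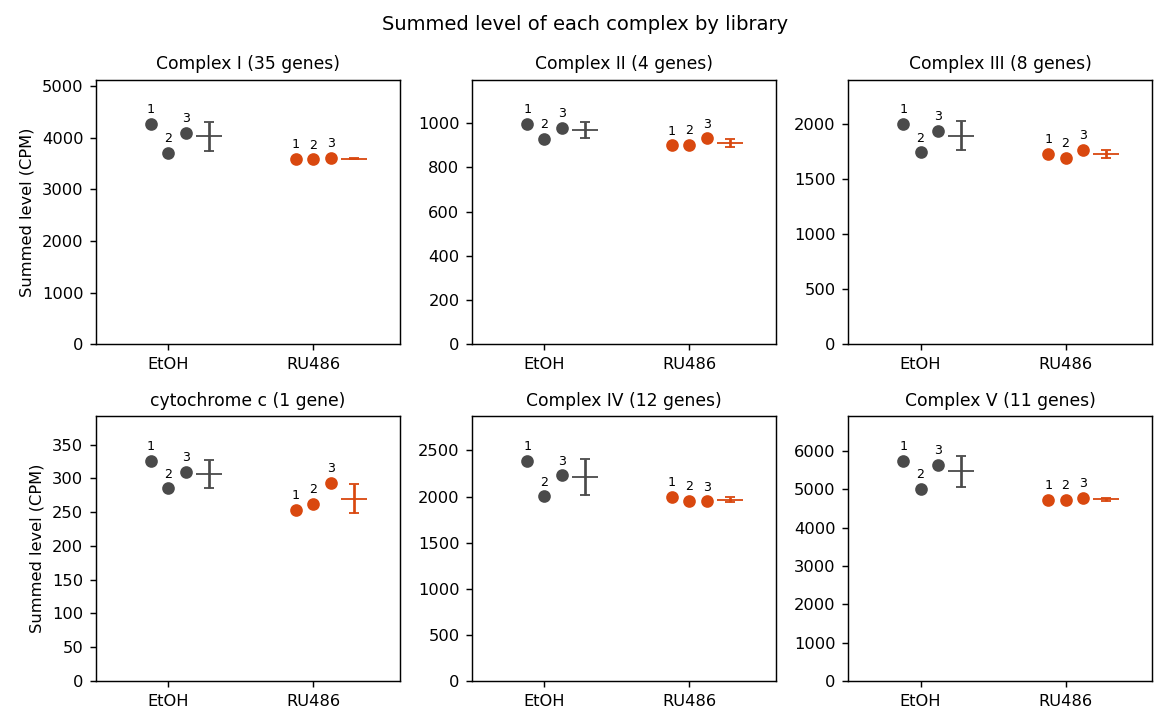
Summed level in CPM of the members of each complex (vertical axes start at 0), with 1 point per library marked by its replicate number, and the mean and SD of each group beside the points. The RU486 points form tight groups, at 4715 to 4780 CPM for complex V, except for cytochrome c, where they run from 254 to 294 CPM. EtOH replicate 2 is the lowest EtOH point in every panel.

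In complex I the RU486 libraries again lay below the EtOH libraries in sum, at 3596, 3580 and 3614 CPM against 4270, 3711 and 4099 CPM. The RU486 mean was 0.893 times the EtOH mean of 4027 ± 286 CPM. Of 35 genes 32 were tested, 31 had a log2 fold change below 0, and the median was -0.17. EdgeR called 0, with 11 lower and 1 higher at an unadjusted p under 0.05 (10.7% of all tested genes were lower). Without EtOH replicate 2, 17 were called, each lower (6.47% of all genes). The 7 core subunits, which hold the redox cofactors and the quinone site, had a median of -0.14, and the 25 other tested subunits had a median of -0.17. The core genes are longer, with a median of 1336 exonic bases against 807. With the length correction the medians were -0.077 and -0.083, and the difference was not tested.

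By position in the complex, as known from mammals, the 7 tested subunits of the NADH-binding module had a median log2 fold change of -0.14. The 7 of the quinone-binding module had -0.18 and the 16 of the membrane arm had -0.16. With the length correction the 3 medians were -0.077, -0.086 and -0.078. Differences between these modules were not tested. ND-13B (chromosome 3L, 10693184 to 10694108), an accessory subunit of the quinone module, had the smallest p of complex I. It was at 77.7, 68.3 and 71.5 CPM in EtOH and at 61.0, 60.7 and 58.6 CPM in RU486, with no overlap (log2 fold change -0.27, SE 0.08, 95% interval -0.44 to -0.10, edgeR adjusted p = 0.0670). It was called with upper-quartile factors (0.0458) and without EtOH replicate 2 (0.0261).

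ND-ASHI and ND-B12, accessory subunits of the membrane arm, were also without overlap, with log2 fold changes of -0.25 (SE 0.08, edgeR adjusted p = 0.0878) and -0.29 (SE 0.10, edgeR adjusted p = 0.107). ND-51, which binds NADH and the flavin, was nearer to no difference, at 477, 424 and 464 CPM in EtOH and 430, 423 and 421 CPM in RU486 (log2 fold change -0.10, SE 0.08, edgeR adjusted p = 0.520). Its RU486 values lay close to EtOH replicate 2. ND-49, a core subunit at the quinone site, had a log2 fold change of -0.18 (SE 0.07, edgeR adjusted p = 0.190). ND-MLRQ, whose mammalian counterpart is found in complex IV, had -0.24 (SE 0.08, edgeR adjusted p = 0.140). ND-B18, an accessory subunit of the membrane arm, was nearest to 0, with -0.01 and a 95% interval of -0.20 to 0.17.

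Some complex I genes had too few counts to be read. ND-MWFE, an accessory subunit, had only 5, 10 and 4 counts in EtOH and 14, 10 and 12 counts in RU486. It was the 1 member higher in RU486 at an unadjusted p under 0.05 (log2 fold change 1.16, SE 0.46, edgeR adjusted p = 0.173), and 35.0% of its annotated exonic bases are shared with the neighbouring genes TppII or Nrk. ND-B8 had at most 16 counts in a library and was not tested. The copies ND-51L1 and ND-51L2, each of which lies inside another gene on the same strand, were listed at 0 in all libraries.

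**Figure D3:**
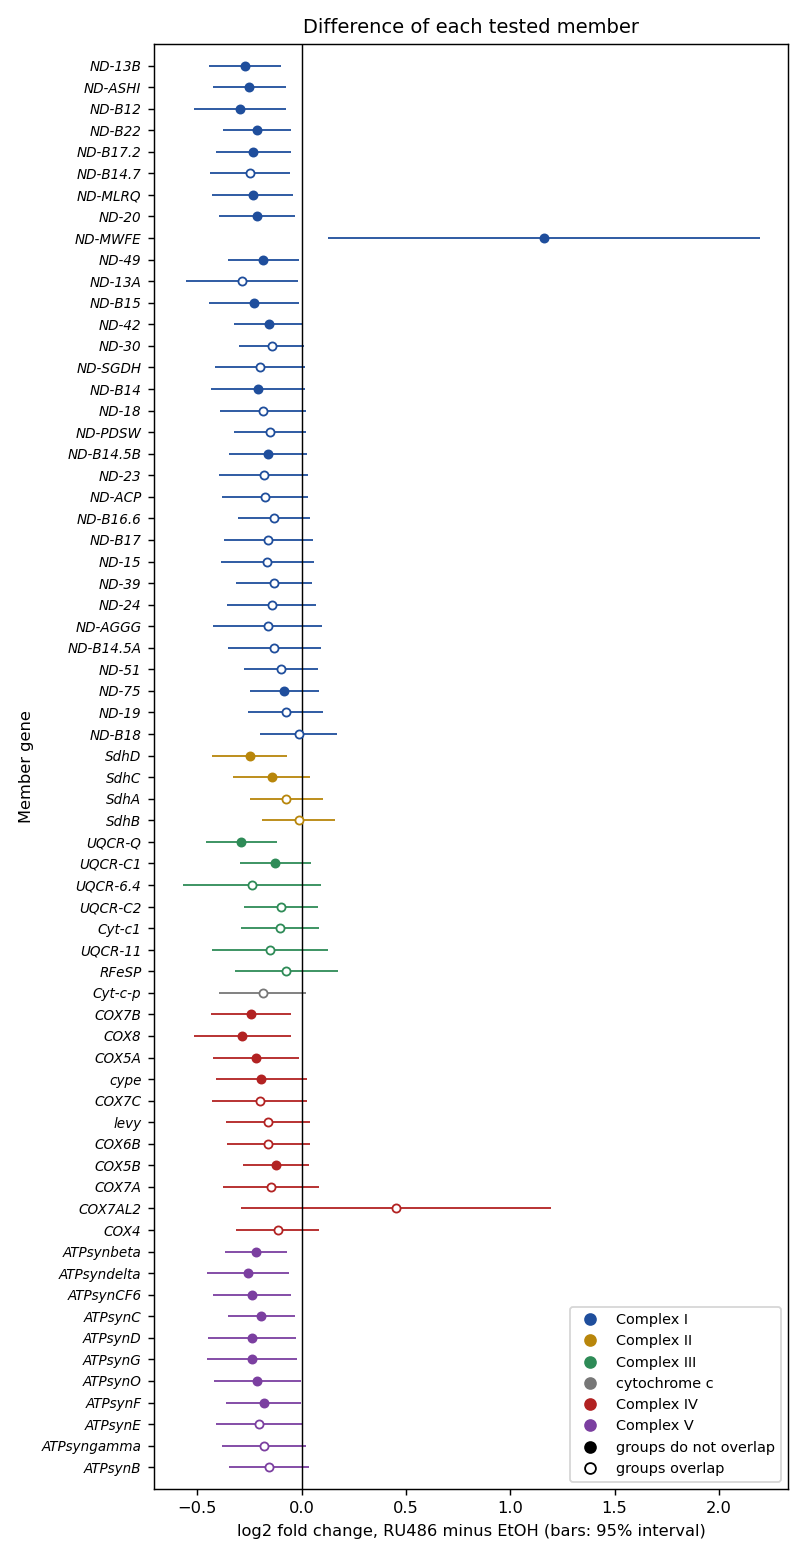
Log2 fold change of each of the 66 tested members, RU486 minus EtOH, with its 95% interval, coloured by complex. Filled circles mark members whose groups did not overlap, and 64 of 66 points lie below 0, with ND-MWFE at 1.16 and COX7AL2 at 0.45 the exceptions.

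Complex IV resembled complex I. Its summed level was 2391, 2001 and 2230 CPM in the EtOH libraries and 1994, 1953 and 1948 CPM in those with RU486, all just under EtOH replicate 2. The RU486 mean was 0.890 times the EtOH mean of 2207 ± 196 CPM. Of 12 genes 11 were tested and 10 had a log2 fold change below 0, with a median of -0.16. EdgeR called 0 of 11, with 3 lower at an unadjusted p under 0.05 (10.7% of all tested genes). Without EtOH replicate 2, 4 were called lower (6.47% of all genes), namely COX5A, COX7A, COX7C and levy.

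The small subunits COX7B and COX8 had the smallest p of complex IV. COX7B was at 146, 126 and 117 CPM in EtOH and at 109, 108 and 112 CPM in RU486 (log2 fold change -0.24, SE 0.08, edgeR adjusted p = 0.128). COX8 had a log2 fold change of -0.28 (SE 0.10, edgeR adjusted p = 0.140). For both, EtOH replicate 1 was the highest library and the groups did not overlap. COX5A was at 387, 323 and 364 CPM in EtOH and 300, 306 and 316 CPM in RU486 (-0.22, SE 0.09, edgeR adjusted p = 0.191). The genes cype, which codes for the subunit VIc, and levy, which codes for the subunit VIa and is known from flies with seizures and neurodegeneration when mutated, had log2 fold changes of -0.19 (SE 0.10, edgeR adjusted p = 0.279) and -0.16 (SE 0.09, edgeR adjusted p = 0.332). COX6B had -0.16 (SE 0.09, edgeR adjusted p = 0.340). COX7AL2, a copy with 15 to 30 counts per library, had 0.45 (SE 0.33, edgeR adjusted p = 0.473), and COX6AL2 had at most 1 count in a library and was not tested.

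Complex III held the member with the smallest p, UQCR-Q. Its summed level was 1997, 1739 and 1936 CPM in EtOH and 1726, 1691 and 1764 CPM in RU486, so the groups overlapped, with EtOH replicate 2 inside the RU486 range. Summed per length and scaled over all genes they did not overlap, at 3359, 3216 and 3389 in EtOH and 3038, 2879 and 3134 in RU486. All 7 tested members had a log2 fold change below 0, with a median of -0.13. EdgeR called 0 of 7, with 1 lower at an unadjusted p under 0.05 (10.7% of all tested genes), and called 1 without EtOH replicate 2 (6.47%). That gene was UQCR-Q (FBgn0036728, chromosome 3L, 17474761 to 17476124), which codes for a small subunit.

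UQCR-Q had the smallest p of all 66 members. It was at 267, 242 and 259 CPM in EtOH and at 216, 205 and 207 CPM in RU486. Its groups were well separated, with EtOH replicate 2 on the side of the other EtOH libraries, unlike for most members. The log2 fold change was -0.29 (SE 0.08, 95% interval -0.46 to -0.12), which missed the threshold at an edgeR adjusted p of 0.0519. In the 16 alternative fits planned it was called in 10, and its adjusted p ran from 0.00417 (DESeq2 Wald test) to 0.164. Among the fits that left out 1 library it was called in 1, that without EtOH replicate 2 (0.0101).

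UQCR-C1, a core protein and the most abundant, was at 605, 543 and 596 CPM in EtOH and at 533, 527 and 538 CPM in RU486 (log2 fold change -0.13, SE 0.08, edgeR adjusted p = 0.378). Cyt-c1, the haem-bearing subunit, had -0.10 (SE 0.08, edgeR adjusted p = 0.529). RFeSP, the Rieske iron-sulfur protein, had -0.07 (SE 0.11, edgeR adjusted p = 0.758), with EtOH replicate 2 at 266 CPM below every RU486 library (290 to 313 CPM). UQCR-6.4 shares 40.5% of its exonic bases with POSH on the other strand and had a log2 fold change of -0.24 (SE 0.15, edgeR adjusted p = 0.389). UQCR-14 lies wholly inside CG32576 on the other strand and was listed at 0. Cyt-c-p, the electron carrier between complexes III and IV, was at 327, 285 and 310 CPM in EtOH and at 254, 263 and 294 CPM in RU486. RU486 replicate 3 lay inside the EtOH range on this scale, and just below it (1051 against a lowest EtOH value of 1060) per length and scaled over all genes (log2 fold change -0.19, SE 0.09, edgeR adjusted p = 0.274), and Cyt-c-p was not called without EtOH replicate 2.

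Complex II stood nearest to the EtOH level in summed CPM, and the log2 fold changes of its 4 members were graded from -0.01 to -0.25. Its summed level was 998, 928 and 980 CPM in EtOH and 900, 901 and 932 CPM in RU486, with overlap, and the RU486 mean was 0.940 times the EtOH mean. Summed per length and scaled over all genes the groups did not overlap, at 1594, 1580 and 1605 in EtOH and 1485, 1446 and 1513 in RU486. The subunits of the catalytic head were close to no difference. SdhA, the flavoprotein, was at 447, 452 and 457 CPM in EtOH and 417, 415 and 457 CPM in RU486 (log2 fold change -0.07, SE 0.08, 95% interval -0.25 to 0.10, edgeR adjusted p = 0.643). SdhB, the iron-sulfur subunit, was at 260, 234 and 260 CPM in EtOH and 248, 252 and 248 CPM in RU486 (-0.01, SE 0.08, 95% interval -0.19 to 0.16, edgeR adjusted p = 0.949).

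The membrane anchors of complex II, SdhD and SdhC, were lower without overlap, a pattern that 13.5% of all tested genes had. For SdhC the margin was small, and its unadjusted edgeR p was not under 0.05. SdhD was at 138, 114 and 134 CPM in EtOH and 109, 110 and 106 CPM in RU486 (log2 fold change -0.25, SE 0.08, 95% interval -0.43 to -0.07, edgeR adjusted p = 0.101), and it was called without EtOH replicate 2 (0.00525). SdhC was at 152, 128 and 129 CPM in EtOH and 127, 124 and 120 CPM in RU486 (-0.14, SE 0.08, edgeR adjusted p = 0.341). The difference between the anchors and the head subunits was not tested, and the annotated exonic lengths differ too, at 894 bases for SdhD and 906 for SdhC against 1219 for SdhB and 2750 for SdhA.

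Per length, the ring and the catalytic subunit of complex V were the most abundant members. In EtOH the highest level per kilobase of exon was that of ATPsynC, at 970 ± 72.0 CPM per kilobase, followed by ATPsynbeta at 723 ± 37.1. In RU486 these were at 849 ± 19.4 and 621 ± 21.9 CPM per kilobase. COX6B (481 in EtOH), Cyt-c-p (451), COX5A (449) and levy (443) came next, close together beside SDs of 30.5 to 42.6 CPM per kilobase. In complex III the highest were UQCR-C1 at 356, RFeSP at 280 and UQCR-Q at 262 CPM per kilobase, and in complex I ND-MLRQ at 348, ND-51 at 286 and ND-49 at 198. SdhB led complex II at 206. The lengths are of the union of annotated exons, which for genes such as ATPsyndelta or UQCR-11 may be longer than the transcript present.

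The share of each complex among all subunit CPM moved little. Complex I took 27.0% to 27.3% in every library, and complex IV 14.6% to 15.2%. Complex III took 12.7% in each EtOH library and 13.1%, 12.9% and 13.2% in RU486, without overlap. Complex V took 36.6%, 36.7% and 37.1% in EtOH and 35.8%, 36.0% and 35.9% in RU486, so its shares did not overlap between the groups. Complex II took 6.34%, 6.78% and 6.45% in EtOH and 6.83%, 6.87% and 6.99% in RU486, also without overlap.

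**Figure D4:**
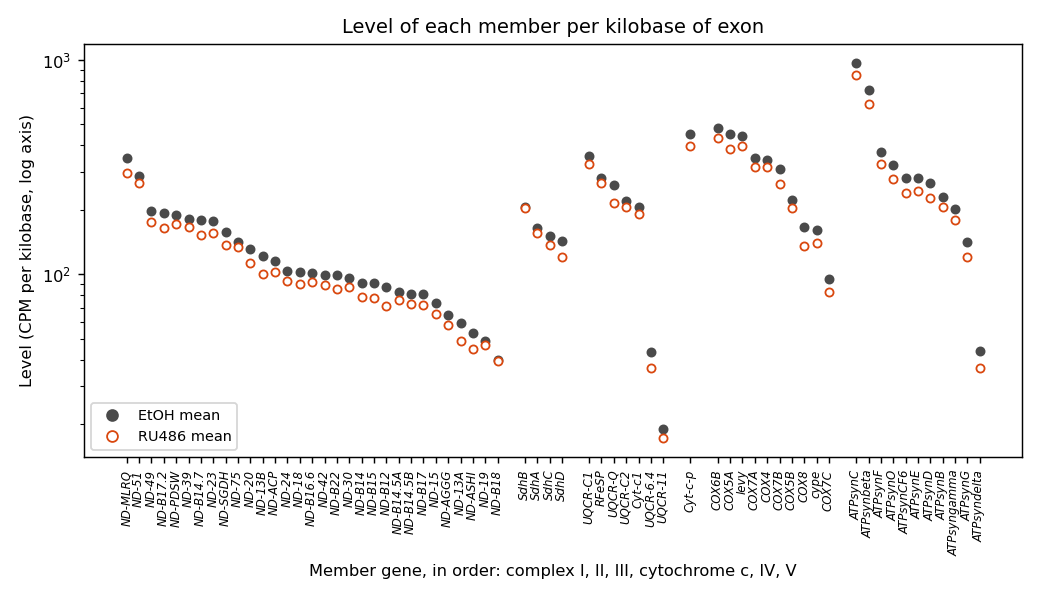
Mean level of each tested member in CPM per kilobase of exon (log axis) in EtOH (filled) and RU486 (open), ordered within each complex from the highest EtOH level. The open circles lie at or just under the filled ones throughout, and ATPsynC and ATPsynbeta stand above all others at 970 and 723 in EtOH. ND-MWFE and COX7AL2 are left out.

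Gene length moved with the differences, and most subunit genes are short. The median exonic length was 880 bases over the tested members and 2193 over all tested genes with a length. All tested genes of 800 or fewer bases had a median log2 fold change of -0.12, and those over 4000 bases had 0.09. The 26 members of 800 or fewer bases had a median of -0.21. In EtOH replicate 2 the same genes were shifted against the other EtOH libraries, by a median of -0.24 on the log2 scale for all genes of 800 or fewer bases and by 0.20 for those over 4000. With each library corrected for its trend on length, the median over members went from -0.18 to -0.081, and 60 of 66 stayed below 0.

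The length correction changed the complexes unequally. The median of complex V went from -0.21 to -0.13, that of complex I from -0.17 to -0.081, that of complex III from -0.13 to -0.081, that of complex II from -0.11 to -0.062 and that of complex IV from -0.16 to -0.053. Differences between complexes were not tested. The members called with it were UQCR-Q (edgeR adjusted p = 0.0425) and ATPsynbeta (0.0232), where 4.93% of the 8877 genes of that fit were called lower. With the replicate block as well, ATPsyndelta was also called (0.0451), where 5.8% of genes were lower. ND-19, ND-B18, SdhB and RFeSP, each near 0 before, came to lie above 0. With the correction and without EtOH replicate 2, 3 members were called, ATPsynbeta, ATPsyndelta and ATPsynC, all of complex V (3.73% of the 9015 genes of that fit were called lower).

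**Figure D5:**
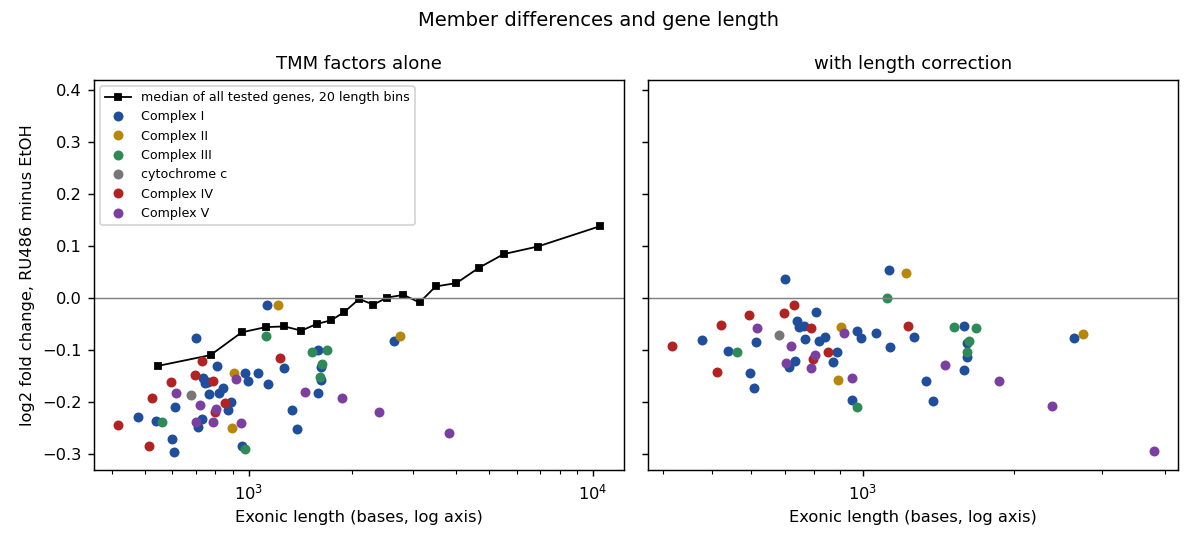
Log2 fold change (RU486 minus EtOH) of each member against exonic length in bases (log axis), on the left with TMM factors alone and on the right with the length correction. The black line on the left is the median of all tested genes in 20 bins of length and rises with length, most members lie below it, and on the right the member median is -0.081. ND-MWFE and COX7AL2 are left out.

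A few genes that work beside the chain were called, where 3.28% of all tested genes were called lower and 4.36% higher. Of 16 assembly factors found, 14 were tested, 1 fell and 0 rose, with a median log2 fold change of -0.14. That gene was Sirup, which helps to assemble complex II and fell from 110 ± 12.01 to 79.5 ± 4.91 CPM (-0.47, SE 0.09, edgeR adjusted p = 0.0147). Its call was lost without EtOH replicate 1 (0.0620), EtOH replicate 3 (0.0860) or RU486 replicate 3 (0.0780). Of 15 tested genes of the Krebs cycle and pyruvate dehydrogenase 2 fell and 0 rose, with a median of -0.12. ScsbetaA, a subunit of succinyl-CoA synthetase, fell from 606 ± 48.7 to 438 ± 29.8 CPM (-0.47, SE 0.09, edgeR adjusted p = 0.0139). Its call was lost without EtOH replicate 3 (0.0784), RU486 replicate 1 (0.0551) or RU486 replicate 2 (0.0514). Pdha, the E1 alpha subunit of pyruvate dehydrogenase, fell from 382 ± 20.5 to 301 ± 9.35 CPM (-0.34, SE 0.08, edgeR adjusted p = 0.0360), and kept its call in 1 of the 6 fits that left out 1 library, that without EtOH replicate 2 (0.00740), with 0.0679 to 0.142 in the others.

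Of 8 tested regulators of mitochondrial biogenesis and mitochondrial DNA 1 rose and 0 fell, with a median log2 fold change of 0.06 (0.04 with the length correction). Their median exonic length was 2822 bases, and their difference from the subunits was not tested. The gene that rose was srl, the fly counterpart of the PGC-1 coactivators that drive respiratory genes in mammals. It rose from 20.3 ± 0.652 to 30.7 ± 1.74 CPM (0.60, SE 0.09, edgeR adjusted p = 0.00343), kept its call whichever 1 of the 6 libraries was removed, and has 4642 exonic bases (adjusted p = 0.00372 with the length correction). TFAM, which packages mitochondrial DNA, had a log2 fold change of 0.11 (SE 0.12, edgeR adjusted p = 0.659), and ewg, the fly counterpart of the nuclear respiratory factor NRF-1, had 0.00 (SE 0.07, edgeR adjusted p = 0.983).

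Among 11 tested genes of mitochondrial quality control 1 fell and 0 rose (median -0.10). This was Lon, a matrix protease, with 102 ± 2.33 and 87.2 ± 2.43 CPM (log2 fold change -0.23, SE 0.06, edgeR adjusted p = 0.0475), a call kept without EtOH replicate 2 (0.0364) and lost in the other 5 such fits (0.0950 to 0.185). The DESeq2 Wald test (0.0801), limma-voom (0.0662) and the replicate block (0.0720) did not call it either. Of 10 carriers and uncoupling proteins 6 were tested and edgeR called 0, with 4 lower at an unadjusted p under 0.05 (median -0.19). The mitochondrial carrier gene Bmcp came nearest (-0.30, SE 0.08, edgeR adjusted p = 0.0555). The main adenine nucleotide carrier gene sesB and all 13 protein-coding genes of the mitochondrial genome were listed at 0 in every library. These transcripts are abundant in any fly head, so the 0 says nothing about their expression, and the mitochondrially encoded subunits of complexes I, III, IV and V could not be compared with the nuclear ones.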

How the data were processed

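Libraries of 3 EtOH and 3 RU486 samples were made with a stranded mRNA kit from 500 ng of total RNA, per the labels' protocols. The authors deposited raw read counts per gene, whole numbers with no normalisation, per the file headers. BDGP6 is the genome build in the submitters' processing notes. For the aligner, the counter, its strand setting and the gene models, the tool or release was not given in the sources used here. Symbols came from a table of FlyBase identifiers (17626 of 17753 identifiers matched). Coordinates, overlaps and exon lengths came from Ensembl release 115 (BDGP6.54, 1-based).

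Counts were tested in R 4.3.3 with edgeR 4.0.16 (filterByExpr with a minimum count of 10, TMM factors, two-sided quasi-likelihood test, Benjamini-Hochberg adjustment over 8945 genes), after the procedure was tested on simulated data. Levels are CPM with TMM factors (0.983 to 1.02), as mean ± SD of 3 libraries. The standard error (SE) is the log2 fold change over the square root of F, and 95% intervals are not adjusted for the number of genes. Alternatives used DESeq2 1.42.0 and limma 3.58.1. The length correction took each library's lowess trend of log2 ratio on log2 exonic length (span 0.4) as an offset. No 2 libraries of the same group agreed within sampling noise.

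The members, lists and complex I modules were chosen with earlier results of these data known. Named members were the 3 with the smallest p and the 3 with the highest level per kilobase in each complex, those the rule names singly, and those not tested. Named genes of other lists were those called, with at most 4 per list apart from the 5 of the glia list, and cell type markers at 0. ND-MWFE and COX7AL2 were named for their few counts, and UQCR-11 for its annotated length. The genes blw, sun, ND-B18, ATPsynG, TFAM, ewg, Bmcp and sesB, and those named for losing or changing a call or sign in an alternative, were chosen after their values were seen.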

Additional observations from a re-analysis of the deposited data

How the results depend on the processing

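The direction of the complex medians held in every fit. They lay below 0 in all 17 fits other than the reported one, from -0.25 to -0.08 for complex I, -0.14 to -0.05 for complex II, -0.18 to -0.08 for complex III, -0.25 to -0.05 for complex IV and -0.28 to -0.13 for complex V. The ratio of summed levels ran from 0.875 to 0.890 over all members under other scalings or without ATPsynC. The length correction moved every complex median toward 0, to -0.081 in complex I, -0.062 in II, -0.081 in III, -0.053 in IV, -0.13 in V and -0.071 for cytochrome c. In complexes I and IV and cytochrome c they were -0.081, -0.054 and -0.074 with the replicate block as well, and -0.049 in complex IV and -0.055 for cytochrome c with the length correction and without EtOH replicate 2, a fit added after seeing the data. Limited to members with under 10% of exonic bases shared, also added later, the median over members was -0.18.

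The number of members called depended on the setting. It was 0 in the reported fit and with no filter, and 1 with DESeq2 size factors, library size alone, the filter of 1 CPM in 3 libraries, limma-voom and the replicate block, each time UQCR-Q of complex III. It was 2 with upper-quartile factors (1 each in complexes I and III), the DESeq2 Wald test and the length correction (1 each in complexes III and V), and 3 with the block and the length correction (1 in complex III and 2 in V), or with the length correction without EtOH replicate 2 (3 in V). A threshold of 0.1 gave 4 (2 in complex I and 1 each in III and V). When 1 library was left out the number ran from 0 to 33 (0 to 17 in complex I, 0 to 1 in II and III, 0 to 4 in IV and 0 to 10 in V), with calls only without EtOH replicate 2. Over all genes, calls ran from 341 to 1441 in those fits, and were 872 with the replicate block, 1096 with the block and the length correction, and 1114 at a threshold of 0.1.

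Whether the replicate numbers pair the libraries was not settled. Same-numbered libraries had correlations of deviations of 0.124, 0.269 and -0.044. EtOH replicates 1 and 2 each correlated best with the RU486 library of the same number. EtOH replicate 3 correlated best with RU486 replicate 1 (0.291). The replicate block changed 1 member call, that of UQCR-Q (adjusted p = 0.0434). Depth limited ND-MWFE, COX7AL2, ND-B8 and COX6AL2, with at most 30 counts per library.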
